A study of Mus musculus with 16 samples.

Results

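Control hepatocytes exposed to forskolin for 4 h were compared with control hepatocytes exposed for 2 h, to see which early transcripts had faded and which had appeared late. The 4 arrays of this comparison were chosen by their sample titles, out of 16 in the series, as the 2 of each time that received the control adenovirus and forskolin. All 7746 genes with a detected probe were tested. The cells were primary hepatocytes of C57BL/6 mice aged 6 to 8 weeks, and every culture of the series had been infected with an adenovirus. The control virus is named GFP in the titles and shGFP in the series text, and the other virus carried shRNA against Hdac4 and Hdac5, class IIa histone deacetylases whose part in hepatic glucose production the series addresses. Forskolin activates adenylyl cyclase, and DMSO was its solvent control at the same times. The other arrays compared here are the 2 at each time that received the control virus and DMSO. With them are the 2 at each time that received the shRNA virus and forskolin. All 16 arrays, also those with the shRNA virus and DMSO, entered the fit that gave the spread. The arrays with the shRNA virus and DMSO also served the 2 h calls in knockdown cells and the signal ranges of Hdac4 and Hdac5. Whether the 2 arrays of each group stem from different cultures is not given in the sources used here, so each p-value measures only how these arrays vary, a spread that may be technical.

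Glucagon, released by the pancreas in fasting, raises cAMP in hepatocytes, and forskolin raises it directly. Cyclic AMP frees the catalytic subunits of protein kinase A, which phosphorylate the transcription factor CREB and hold its CRTC coactivators in the nucleus, so that genes with a cAMP response element are transcribed within minutes. Many of the first products are themselves transcription factors, kinases or phosphodiesterases that act back on the pathway, while enzymes of glucose production and amino acid use follow.

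The 4 arrays detected 8455 to 9212 of 24613 probes, with median signals of 103.2 to 107.4. The arrays of a time correlated at 0.9919 (2 h) and 0.9922 (4 h) across genes, and arrays of different times at 0.9613 to 0.9641. The hepatocyte markers Apoa1, Ttr, Serpina1a, Hnf4a and Apob were detected on every control-virus array, while the probes of Alb and Cyp2e1 were not detected on any and no probe was matched to Cps1 or Tf. The summed linear signal of the 5 detected hepatocyte markers was 21500 to 23900 at 2 h and 23400 to 28900 at 4 h of forskolin. Of 7 macrophage markers 4 were detected on every control-virus array (Adgre1, Cd14, Marco and Lyz2), with a sum of 3930 to 4180 at 2 h and 4300 to 4530 at 4 h of forskolin, and Clec4f was not detected. Under DMSO that sum was 8200 to 8250 at 2 h and 3470 to 3720 at 4 h. Stellate or fibroblast markers summed to 8270 to 8350 and 6790 to 7480, endothelial markers to 1150 to 1260 and 1130 to 1160, and cholangiocyte markers to 2780 to 2890 and 3570 to 3980, at 2 h and 4 h of forskolin. The members of a list did not all move with its sum. By the test of time given below, Col1a1 was lower at 4 h, and Acta2, Col1a2 and Col3a1 did not pass. Sox9 rose (0.66 on the log2 scale), Krt7 fell (-0.76) and Krt19 did not pass. Des, Lrat, Pdgfrb, Kdr, Tek and Epcam were not detected on a control-virus array. None of 6 lymphoid and neutrophil markers was detected on a control-virus array. Fewer cells of a type and less RNA per cell cannot be told apart in such samples.

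Between 2 h and 4 h of forskolin 2954 genes (38.1% of those tested) passed the test, limma's moderated test with a Benjamini-Hochberg adjusted p under 0.05. Of these 1476 (19.1%) were higher at 4 h and 1478 (19.1%) were lower. A 2-fold difference or more was reached by 207 of the higher and 299 of the lower genes. At 4 h 185 of the lower genes were below background on both arrays, and 240 of the higher genes had been below background at 2 h. Of these genes 65 lower and 46 higher ones were below background at both times, so that their calls rest on signals under the detection limit and measure no change, and any of them in a list below is named there. Scaling the arrays to a common median in place of common quantiles moved the median of all genes from 0.008 to 0.10 on the log2 scale and gave 1610 higher and 915 lower genes, 63.8% higher against 50%.

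Under DMSO 907 genes (11.7%) passed, 468 higher (6.04%) and 439 lower (5.67%) at 4 h, with 35.3% higher in place of 51.6% under median scaling. Leaving out any 1 of the 4 DMSO arrays cut the 907 genes to between 502 and 566. Of the 1476 genes that were higher at 4 h of forskolin 138 (9.35%) were also higher under DMSO, and of the 1478 lower genes 130 (8.8%) were also lower, while 169 (11.4%) were higher under DMSO. The 2 time differences, which share no array, correlated at 0.0692 across the 7746 genes, given as a description. The difference between the time changes under forskolin and DMSO passed for 2061 genes (26.6%), 975 with a higher (12.6%) and 1086 with a lower change under forskolin (14%), and median scaling put 66.0% in place of 47.3% of them on the higher side and moved the median of all genes from 0.026 to 0.18. Among the genes called under forskolin, 914 of the 1478 lower and 710 of the 1476 higher genes also passed this test in the same direction. The 2 tests share the forskolin arrays, which favours such a match.

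**Figure D1:**
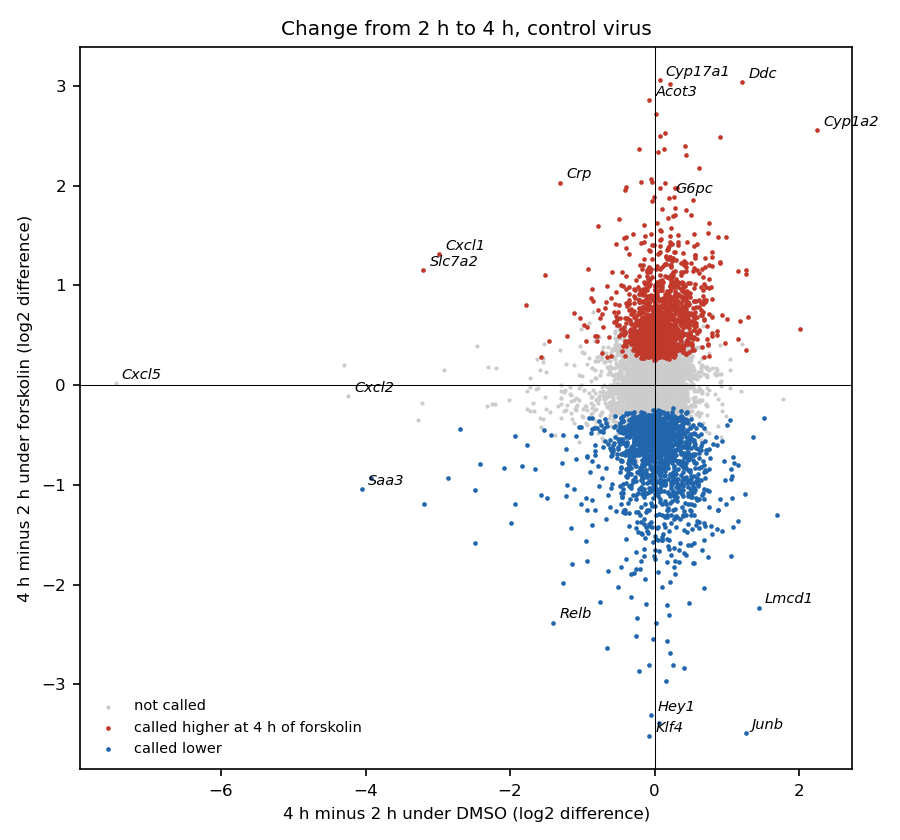
Each point is 1 of the 7746 genes, with its 4 h minus 2 h difference under DMSO on the x axis and under forskolin on the y axis (control virus, log2 differences, means of 2 arrays each). Klf4, Hey1 and Acot3 lie near 0 under DMSO with large differences under forskolin, while Cxcl5 and Cxcl2 fell under DMSO and lay near 0 under forskolin.

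Among genes detected on all 4 arrays, the 5 largest falls were those of transcription factors of the early cAMP response. Klf4, a zinc finger factor, had log2 signals of 11.28 and 10.94 on the 2 h arrays and of 7.61 and 7.58 on the 4 h arrays, a difference of -3.52 (SE 0.16, adjusted p = 1.2e-08). Junb, a subunit of AP-1, read 10.85 and 11.08 at 2 h and 7.51 and 7.45 at 4 h (-3.49, SE 0.12, adjusted p = 1.3e-09). The groups did not overlap for either gene, which held for 67.8% of all tested genes. Junb went the other way under DMSO, where it rose by 1.26, so that at 4 h it was lower with forskolin than without (-2.70, adjusted p = 5e-09), having been higher at 2 h (2.05). Klf4 did not pass the test of time under DMSO (-0.07), and at 4 h it was still higher with forskolin than without (0.58, adjusted p = 0.014).

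Hey1, a transcriptional repressor better known as a Notch target, read 11.18 and 11.04 at 2 h and 7.75 and 7.85 at 4 h (-3.31, SE 0.11, adjusted p = 1.2e-09) and was below background under DMSO at both times. Nr4a2, an orphan nuclear receptor, read 10.45 and 10.46 and then 7.84 and 7.97 (-2.55, SE 0.095, adjusted p = 2.1e-09). Sik1, a kinase that phosphorylates class IIa deacetylases and CRTC coactivators and so restrains the pathway, read 9.86 and 9.97 and then 7.47 and 7.60 (-2.38, SE 0.18, adjusted p = 1.1e-06). DMSO arrays were below background for all 3 genes, which gives forskolin over DMSO only a lower bound, the bright group's mean over, for each dim array, its faintest detected signal or that of the probe itself, whichever is higher. By that measure Hey1 was at least 25.4-fold above DMSO at 2 h and at least 2.24-fold at 4 h, Nr4a2 at least 16.1-fold and at least 2.41-fold, and Sik1 at least 11.1-fold and at least 1.87-fold. The 3 genes had lost much of their early level and were still above DMSO. Nr4a1 and Nr4a3, close relatives of Nr4a2, were not detected.

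Fosl2 (-2.97, SE 0.12) and Atf3 (-2.87, SE 0.13), further AP-1 and ATF factors, fell to levels at 4 h that did not pass the test against DMSO (-0.20 and 0.30, adjusted p = 0.24 and 0.10). Fos and Fosb were below background on both 4 h arrays. With bounds of the same kind Fos was at least 2.73-fold lower (adjusted p = 1.7e-06) and Fosb at least 2.24-fold lower (adjusted p = 1.1e-06). The ubiquitin protease Usp2 was at least 4.56-fold lower (adjusted p = 0.0002), from 8.68 and 8.70 at 2 h, and C2cd4a at least 4.29-fold lower (adjusted p = 1.2e-09), from 8.57 and 8.64.

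Hilpda, a lipid droplet protein that inhibits adipose triglyceride lipase, fell by 2.84 (SE 0.098), from 11.28 and 11.27 to 8.35 and 8.52. Cish, a feedback inhibitor of cytokine receptors, fell by 2.64 (SE 0.12) and the orphan receptor Gprc5a by 2.69 (SE 0.12), with adjusted p of 1.1e-08 and 1e-08. Phyhipl was at least 2.22-fold lower. Cish also fell under DMSO, by 0.66, and the fall under forskolin was larger (difference -1.98, adjusted p = 4.1e-06). C2cd4a, Fosb, Phyhipl and Usp2 were below background at 4 h, so their falls have no measured place in the order of sizes.

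Of 18 measured genes on a list of CREB-linked early genes 14 fell and 2 rose, where 19.1% of all genes went each way. The median difference was -1.63, or -1.42 when genes below background enter at their bounds, against 0.01 over all genes. Bhlhe40, a repressor of the circadian clock, fell by 1.60 (SE 0.11), the clock gene Per1 by 1.65 (SE 0.19) and Cebpb, a factor of metabolic and acute phase genes, by 1.37 (SE 0.11). The 2 that rose were Klf6 (0.69, adjusted p = 8.9e-05) and Cebpd (0.29, adjusted p = 0.046), and Ppargc1a and Jun did not pass (0.18 and -0.11). Crem, which encodes cAMP-inducible repressors, fell by 0.78 (SE 0.14, adjusted p = 0.00093) on the probe used, while its other probe rose by 0.68 (adjusted p = 0.0083 over all probes). No direction is therefore given for the gene as a whole.

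**Figure D2:**
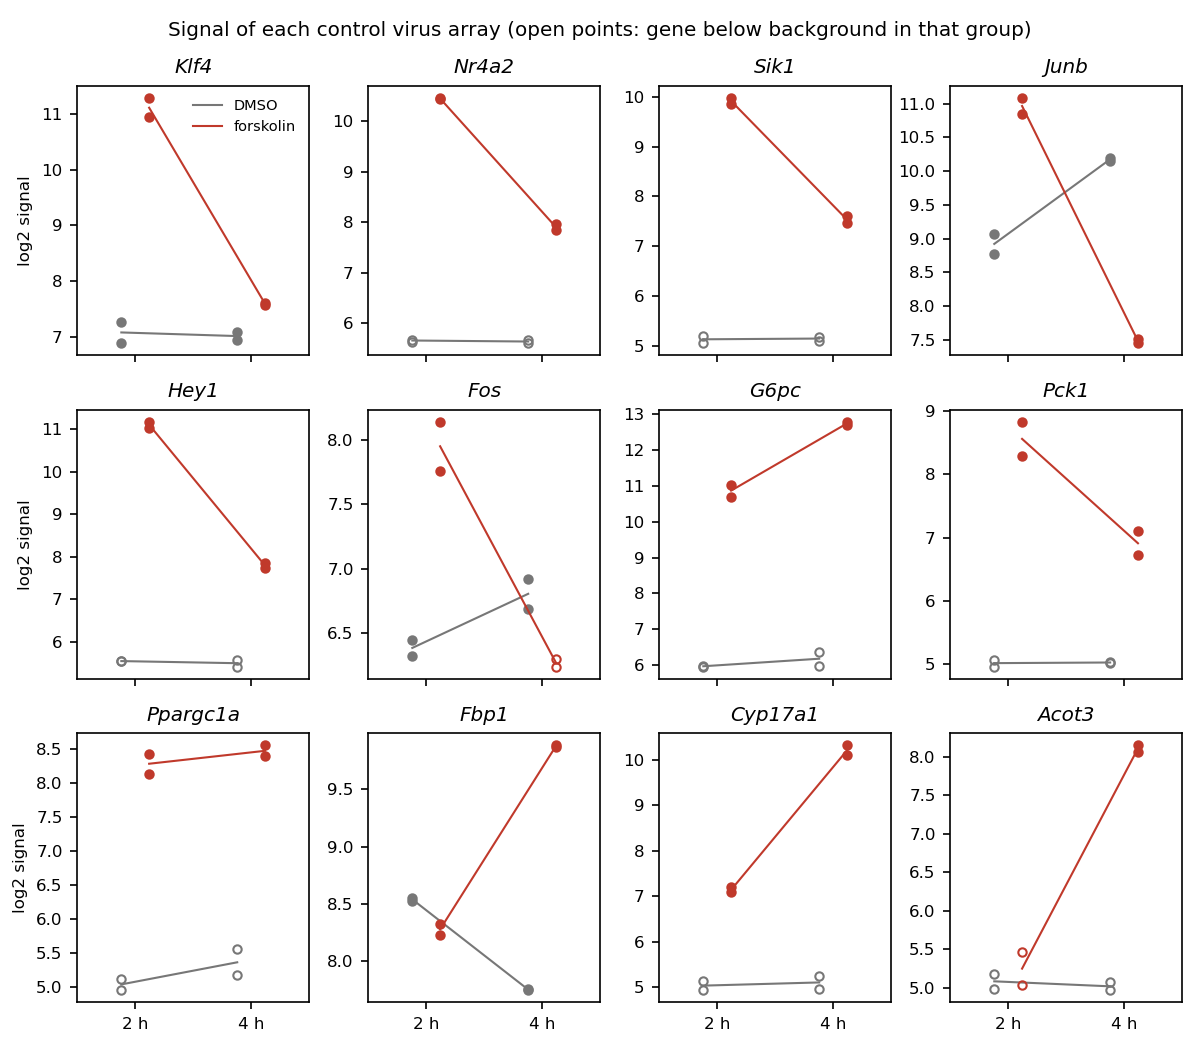
Log2 signal of 12 genes on each of the 8 control-virus arrays, against time, for DMSO (grey) and forskolin (red), with lines through the group means and open points where the gene was below background on both arrays of a group. Each panel has its own y axis. Klf4, Nr4a2, Sik1, Junb, Hey1, Fos and Pck1 drop between 2 h and 4 h of forskolin, Ppargc1a stays near 8.3 to 8.5, and G6pc, Fbp1, Cyp17a1 and Acot3 rise.

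The enzymes of glucose production split. G6pc, the catalytic subunit of glucose-6-phosphatase, which releases glucose from the cell, read 10.70 and 11.04 at 2 h and 12.79 and 12.70 at 4 h, a rise of 1.88 (SE 0.14, adjusted p = 8.2e-07). Pck1, which makes phosphoenolpyruvate from oxaloacetate, went from 8.83 and 8.29 to 7.10 and 6.72, a fall of 1.65 (SE 0.20, adjusted p = 3.6e-05). The arrays of the 2 times did not overlap for either gene, as for 67.8% of all tested genes. Neither gene passed the test of time under DMSO, where both were below background. Fbp1, fructose-1,6-bisphosphatase, read 8.33 and 8.23 and then 9.87 and 9.88 (1.59, SE 0.14, adjusted p = 2.5e-06), while under DMSO it fell by 0.78 (adjusted p = 0.0021). At 2 h Fbp1 had not passed the test against DMSO (-0.26, adjusted p = 0.21), and at 4 h it was 2.12 above it.

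Ppargc1a, a coactivator that CREB induces and that drives gluconeogenic genes, read 8.14 and 8.44 at 2 h and 8.40 and 8.56 at 4 h, which overlap (0.18, SE 0.17, adjusted p = 0.43). Igfbp1, which the liver secretes to hold insulin-like growth factors, was below background at 4 h and at least 1.56-fold lower (adjusted p = 0.0011). Pcx, pyruvate carboxylase, was detected on 1 of the 4 arrays and did not pass (-0.04, adjusted p = 0.91). Over a list of 9 measured gluconeogenic enzymes and shuttles 6 rose and 1, Pck1, fell (median 0.69), where 19.1% of all genes went each way. Mdh1, the cytosolic malate dehydrogenase, was among those that rose (1.21, SE 0.22). No probe named Irs2, an adaptor of the insulin receptor that CREB is known to induce.

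The largest rises among genes detected on all 4 arrays were those of Cyp17a1, Ddc, Cyp1a2 and Akr1c19, and other genes rose from below background at 2 h. Cyp17a1, the steroid 17-alpha-hydroxylase, read 7.09 and 7.20 at 2 h and 10.10 and 10.32 at 4 h (3.06, SE 0.13, adjusted p = 7e-09), and was below background under DMSO. Ddc, aromatic amino acid decarboxylase, read 8.99 and 9.15 and then 12.02 and 12.20 (3.04, SE 0.18, adjusted p = 9.8e-08). Ddc also rose under DMSO, by 1.21, and the rise under forskolin was larger by 1.82 (SE 0.25, adjusted p = 0.00016). Cyp1a2, a P450 of drug and caffeine metabolism, rose by 2.56 (SE 0.13) under forskolin and by 2.25 under DMSO, and the difference of 0.31 (SE 0.18) did not pass (adjusted p = 0.23). Its rise was therefore not shown to differ between the treatments.

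Acot3, a peroxisomal acyl-CoA thioesterase, was below background at 2 h and at both DMSO times, with signals of 5.04 and 5.46 at 2 h and of 8.07 and 8.15 at 4 h of forskolin, and was at least 2.59-fold higher at 4 h (adjusted p = 1.6e-08). Bounds of the same kind were at least 3.27-fold for Tuba8, an alpha-tubulin, at least 3.42-fold for the somatostatin receptor Sstr2, at least 3.08-fold for Dmgdh, dimethylglycine dehydrogenase, at least 2.62-fold for the kinase Dclk3 and at least 1.40-fold for Cacna1h, a T-type calcium channel subunit. These genes were detected on both 4 h arrays and on neither 2 h array. Akr1c19, an aldo-keto reductase, rose by 2.49 (SE 0.13) under forskolin and by 0.90 under DMSO. The palmitoyltransferase Zdhhc14, detected on 1 of the 2 arrays at 2 h, rose by 2.40 (SE 0.17). Amotl2, an angiomotin family member, was at least 1.71-fold higher at 4 h than at 2 h. Its 4 h forskolin arrays, at 7.48 and 7.56, still lay under the DMSO arrays at 7.96 to 8.35.

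Early and late responses were sorted by calls of forskolin against DMSO at each time together with the time difference. These comparisons share arrays, so that a gene whose 2 h forskolin arrays happened to read high is favoured both as early and as fading, and the counts describe these arrays. Forskolin against DMSO passed for 1651 genes at 2 h (21.3%), 818 higher (10.6%) and 833 lower (10.8%), and for 2481 genes at 4 h (32%), 1112 higher (14.4%) and 1369 lower (17.7%). Of the 818 early higher genes 399 (48.8%) fell between 2 h and 4 h, 122 (14.9%) rose further and 297 (36.3%) had no called change. Of the 833 early lower genes 306 (36.7%) rose again, 112 (13.4%) fell further and 415 (49.8%) had no called change. A further 531 genes were late higher and 650 late lower, meaning that they passed against DMSO at 4 h and not at 2 h and changed over time in that direction. Genes below background at both times of forskolin made up 11 of the 399, 12 of the 306, 8 of the 112, 10 of the 531 and 26 of the 650. Under median scaling the faded genes numbered 146, the early genes that rose further 65, the late higher genes 316 and the early lower genes that rose again 698, changes of more than 1.5 times in each.

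For the faded genes the median difference from DMSO was 0.61 at 2 h and -0.38 at 4 h, and at 4 h 200 of the 399 were lower than DMSO by the test, 159 did not pass and 40 were still higher. Of the 6 faded genes taken by the fitted difference from DMSO at 2 h, which has no measured size where DMSO was below background, Hey1, Nr4a2, Sik1, Klf4 and Slc25a25 were still above DMSO at 4 h, and Usp2 was below background in both. Slc25a25, a mitochondrial carrier of ATP and magnesium, went from 11.42 and 11.34 to 9.64 and 9.70 (-1.71, SE 0.11). In 355 of the 399 genes the change under forskolin was lower than that under DMSO by the test, where 14% of all genes were. That test shares its arrays with the calls that made the class, which favours such a result, so the count describes these arrays. Without array A of the DMSO 2 h group the class held 257 genes in place of 399.

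The 122 genes that rose further had a median difference from DMSO of 0.70 at 2 h and 1.33 at 4 h. Taken by the same fitted difference were G6pc, Sgk1, Etnppl, Klb, Adh7 and Mmd2, all but Sgk1 below background under DMSO at 2 h. Etnppl, ethanolamine-phosphate phospho-lyase, read 8.41 and 8.37 and then 10.30 and 10.04 (1.78, SE 0.18). Klb, the co-receptor through which the liver senses fibroblast growth factors of the endocrine family, rose by 1.11 under forskolin (SE 0.11) and was below background under DMSO at both times. Adh7 rose by 0.58 and Mmd2 by 2.04. For Sgk1, a kinase related to Akt, the rise of 0.42 (adjusted p = 0.011) did not pass under median scaling (0.19, adjusted p = 0.40) or without array A of the 2 h group (0.31, adjusted p = 0.098). Leaving out array A of the 2 h group moved the whole class from 122 to 79 genes, and leaving out array B moved it to 78.

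Among early higher genes with no called change, Ppargc1a was joined by Ppp1r3c, a glycogen-targeting subunit of protein phosphatase 1, whose signals were 10.52 and 10.47 at 2 h and 10.31 and 10.22 at 4 h (adjusted p = 0.11). Rgs17, Aldh4a1, Bcl2l11 and Cerk had differences of 0.26, 0.25, -0.29 and 0.16, with adjusted p from 0.17 to 0.24. Rgs17 passed when array B of the 2 h group was left out (0.47, adjusted p = 0.033). A missed threshold does not show that a level was held.

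The late higher genes taken by the fitted difference from DMSO at 4 h were Acot3, Dmgdh, Shisa2, Car3, Cacna1h and Htra1. All 6 were below background under DMSO at 4 h, so their order was not measured, and they stood at least 2.78-fold (Acot3), 3.31-fold (Dmgdh), 5.99-fold (Shisa2), 3.22-fold (Car3), 1.5-fold (Cacna1h) and 1.64-fold (Htra1) above it. Car3, carbonic anhydrase 3, was at least 2.99-fold higher than at 2 h, and Htra1, a secreted serine protease, at least 1.52-fold. Shisa2 rose from 7.14 and 7.32 to 9.18 and 9.26 (1.99, SE 0.17). As a class their median difference from DMSO was -0.01 at 2 h and 0.56 at 4 h. Among the late lower genes, Bcl2l1, which encodes the anti-apoptotic protein Bcl-xL, fell from 10.14 and 10.29 to 8.11 and 8.27 (-2.03, SE 0.12, adjusted p = 1e-07) while rising by 0.68 under DMSO. Etv5, an ETS factor induced by ERK signalling, was at least 1.66-fold lower and Smpd3, neutral sphingomyelinase 2, at least 3.84-fold lower. The urokinase receptor Plaur fell by 1.58, and the secreted Ccn4 and Eepd1, each detected on 1 of the 2 arrays at 4 h, by 1.78 and 1.49.

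Among the early lower genes that rose again were Cxcl1, Tnfaip3, Ccn1, Nuak2, Amotl2 and Rnd3. Nuak2, a kinase related to AMPK, read 8.40 and 8.30 and then 10.58 and 10.48 (2.18, SE 0.10), still below the DMSO arrays of 4 h at 12.18 and 12.05. Without array A of the DMSO 2 h group the class held 191 genes in place of 306, and without its array B 203. The early lower genes that fell further included Ccl7, Saa3, Ccl2, Tnfaip2, Hamp and Ikbke, with values given below. Of the 112 genes 66 also fell under DMSO, where 5.67% of all genes fell. DMSO 2 h arrays that happened to read high favour both the class and a fall under DMSO, so this count describes these arrays. Without array B of the 2 h forskolin group that class held 65 genes.

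**Figure D3:**
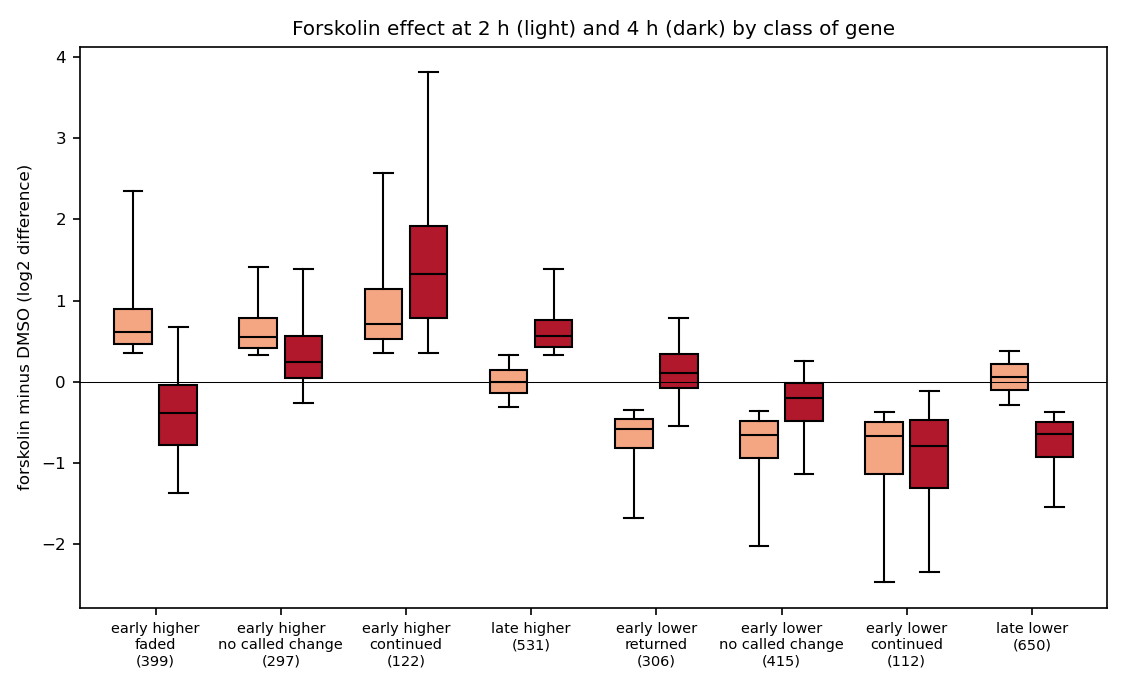
Forskolin minus DMSO differences (log2, y axis) at 2 h (light) and at 4 h (dark) for the 8 classes of genes, with the number of genes of each in brackets. Boxes span the quartiles with the median as a line, and whiskers run to percentiles 5 and 95. The classes were made from these same differences, so the boxes show sizes and not a test, and the median of the faded genes lies at 0.61 at 2 h and at -0.38 at 4 h.

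The knockdown arrays called 177 genes higher and 195 lower after 2 h of forskolin against DMSO, and share no array with the comparison in control cells. Of the 177 genes 72 (40.7%) fell and 54 (30.5%) rose between 2 h and 4 h in control cells (median -0.19), where 19.1% of all genes went each way. Of the 195 early lower genes 62 (31.8%) rose and 46 (23.6%) fell (median 0.04).

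Promoter sequences were searched for the cAMP response element, the palindrome TGACGTCA, and for its shorter form, TGACG, each on both strands. A window ran from 250 bases before to 50 after each RefSeq transcription start (GRCm38.p6) and was found for 6343 of the 7746 tested genes. The full element lay in the windows of 229 genes (3.61%). Among early higher genes it lay in 13 of 318 faded genes (4.09%), 3 of 98 that rose further (3.06%) and 12 of 241 with no called change (4.98%). Among early lower genes it lay in 12 of 239 that rose again (5.02%), 3 of 80 that fell further (3.75%) and 6 of 334 with no called change (1.8%). The late higher genes held it in 15 of 439 (3.42%) and the late lower genes in 12 of 536 (2.24%). Of the 115 faded genes with a window that fell by 2-fold or more, 8 held it (6.96%). The short form outside a full element lay in 34.0% of the tested genes, in 38.7% of the faded, 24.5% of those that rose further and 39.4% of the late higher ones. Over all windows of the table the shares were 1.79% and 19.5% of 32851. No test of these shares was made.

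The stretches below show the elements for genes on which the time course turns, 5′ to 3′ on the gene's strand with up to 24 bases to each side and the element in capitals. Slc25a25 and Lmcd1 faded and hold the full element, at chr2:32424185-32424240 (minus strand) and chr6:112273604-112273659 (plus strand).
Slc25a25: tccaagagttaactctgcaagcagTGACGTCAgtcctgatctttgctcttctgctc
Lmcd1: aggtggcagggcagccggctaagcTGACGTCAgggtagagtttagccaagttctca
Sstr2 appeared between 2 h and 4 h and also holds it, at chr11:113619245-113619300 (plus strand), 58 bases before the start.
Sstr2: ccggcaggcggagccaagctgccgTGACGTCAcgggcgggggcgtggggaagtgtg
Pck1 fell and Ppargc1a did not pass, and both hold the short form, at chr2:173152959-173153011 (plus strand) and chr5:51567746-51567798 (minus strand).
Pck1: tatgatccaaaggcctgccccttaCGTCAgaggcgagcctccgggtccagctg
Ppargc1a: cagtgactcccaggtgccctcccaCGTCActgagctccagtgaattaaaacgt
Nr4a2 holds 4 copies of the short form, of which the 1 at chr2:57124175-57124227 (minus strand) is shown.
Nr4a2: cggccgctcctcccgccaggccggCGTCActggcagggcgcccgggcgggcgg
The window of G6pc, which rose further, held neither form. The element thus stood before genes that fell, genes that rose and genes that did not pass. A match of letters is not evidence of binding, and its absence says only that the letters are not in the window.

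Metabolic genes were read against the 19.1% of all tested genes that rose and the 19.1% that fell, and a list with a share near these gives no result about its members. On the list of amino acid breakdown and urea synthesis 8 of 17 measured genes rose and 0 fell (median 0.34, or 0.29 at bounds). Slc25a15, the mitochondrial ornithine carrier, rose by 1.77 (SE 0.11, adjusted p = 1.4e-07) and Aass, which begins lysine breakdown, by 0.78. Of 11 genes of methionine use and transsulfuration 6 rose and 2 fell (median 0.58, or 0.33 at bounds), 1 of the 6, Cdo1, below background at both times, with Gnmt, glycine N-methyltransferase, up by 1.85 (SE 0.13), Cbs, cystathionine beta-synthase, up by 1.48 (SE 0.20). Cbs also rose under DMSO, by 0.99, and the difference did not pass (adjusted p = 0.24).

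Of 9 genes of fatty acid oxidation and ketogenesis 6 rose and 0 fell (median 0.54), among them Cpt2, the inner carnitine palmitoyltransferase, by 1.25 (SE 0.13) and the acyl-CoA dehydrogenase Acadvl by 0.65. In 3 of the 9 the change was also higher than that under DMSO by the test, where 12.6% of all genes were. Of 10 alcohol and aldehyde dehydrogenases 7 rose and 0 fell (median 0.52, or 0.45 at bounds). Adh1, the main liver alcohol dehydrogenase, read 11.74 and 11.97 and then 13.75 and 13.74 (1.89, SE 0.15, adjusted p = 1.1e-06), and Aldh8a1, which acts in tryptophan breakdown, was at least 1.30-fold higher. Of 10 bile acid and P450 genes 7 rose and 2 fell, or 8 and 0 under median scaling, with a median of 1.29, or 0.44 at bounds. Nr1h4, the bile acid receptor FXR, rose by 1.30 (SE 0.11) under forskolin and by 0.56 under DMSO.

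Of 14 genes of cholesterol and fatty acid synthesis 4 rose and 2 fell, or 4 and 0 under median scaling (median 0.09), 1 of the 4, Idi1, below background at both times. Sqle, squalene epoxidase, rose by 0.61 and Elovl6, a fatty acid elongase, by 0.76, while Srebf2, a regulator of sterol synthesis, fell by 0.56 but did not pass under median scaling (-0.41, adjusted p = 0.060). Of 11 glycolysis and glycogen genes 3 fell and 1 rose, or 2 and 2 under median scaling (median 0.14). Hk2, a hexokinase, fell by 1.56 (SE 0.12), and Pfkfb3, which makes the activator of phosphofructokinase, by 0.95 (SE 0.13). Hk2 also fell under DMSO, by 0.95, and Pfkfb3 rose there, by 0.62. Slc2a1 fell by 0.29 and Pfkl rose by 0.45, and neither passed without array A of the 2 h group (-0.24, adjusted p = 0.12, and 0.33, adjusted p = 0.19). Under median scaling Slc2a1 was at -0.17 (adjusted p = 0.36), and without an array of the 4 h group it was at -0.22 (array A, adjusted p = 0.14) and Pfkl at 0.48 (array A, adjusted p = 0.076) and 0.41 (array B, adjusted p = 0.12). Of 13 liver transcription factors 4 rose and 1 fell, or 6 and 1 under median scaling (median 0.22). Foxa2, a forkhead factor of liver enhancers, rose by 1.34 (SE 0.14) and Prox1 by 1.22 (SE 0.12), and Cebpb was the factor that fell.

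Genes of growth and cytoskeletal signalling were read against the same shares. Of 13 genes induced by and acting back on ERK signalling 9 fell and 1 rose, or 8 and 1 under median scaling (median -0.65, or -0.93 at bounds). Of the 9, 3 (Spry4, Spred1 and Fosl1) were below background at both times, which leaves 6 with a measured fall. Phlda1 read 10.87 and 10.91 and then 8.47 and 8.70 (-2.30, SE 0.11, adjusted p = 1.5e-08), and Ier3 fell by 1.67 (SE 0.12). Neither passed the test of time under DMSO. Dusp6, a phosphatase of ERK, fell by 1.13 (SE 0.12) on the probe used and did not pass on its other probe (-0.07, adjusted p = 0.81). Myc rose by 0.98.

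Of 18 targets of YAP and SRF, factors that respond to the actin cytoskeleton, 10 fell and 2, Amotl2 and Ccn1, rose (median -0.70, or -0.46 at bounds). Ccn1, a matricellular protein, was detected on 1 of the 2 arrays at 4 h and on neither at 2 h. Ccn2, its relative, read 10.59 and 10.53 and then 8.83 and 9.0 (-1.65, SE 0.14) while rising by 0.66 under DMSO. Lmcd1 read 9.39 and 9.46 and then 7.32 and 7.08 (-2.23, SE 0.12) and rose by 1.44 under DMSO, and Srf itself fell by 1.12 (SE 0.12). Of 10 Kruppel-like factors 5 fell and 1, Klf6, rose, or 5 and 2 under median scaling (median -0.52, or -0.54 at bounds). Beside Klf4 these were Klf16 (-2.02), Klf13 (-1.64), Klf5 (-0.60) and Klf9 (-0.54).

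**Figure D4:**
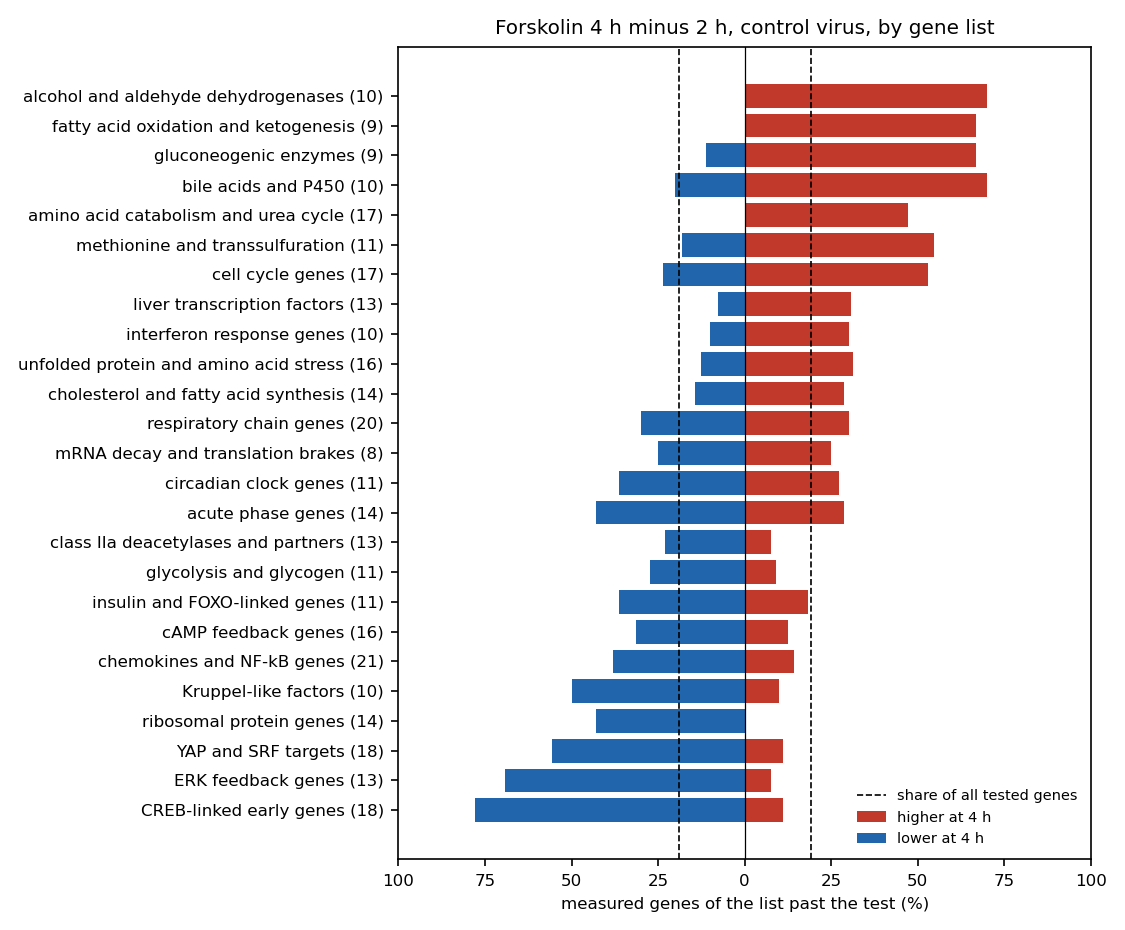
Share of the measured genes of each of 25 lists (in brackets the number measured) that passed the test as higher (red, right) or lower (blue, left) at 4 h than at 2 h of forskolin in control cells, with dashed lines at the share of all tested genes. Bars start at 0. CREB-linked, ERK and YAP or SRF genes extend furthest to the left, and dehydrogenases, bile acid and P450 genes, fatty acid oxidation and gluconeogenic enzymes furthest to the right. Bars include genes called while below background at both times. On the ERK list these are 3 genes, Spry4, Spred1 and Fosl1, which leaves 6 of its 13 with a measured fall.

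Most chemokine and NF-kB genes fell in the DMSO arrays, and some were below background throughout under forskolin. Of 21 chemokine and NF-kB genes 17 fell and 0 rose between 2 h and 4 h under DMSO (median -1.51, or -1.68 at bounds), where 5.67% of all genes fell. Under forskolin 8 fell and 3 rose (median -0.20), where 19.1% of all genes went each way. Of the 21 genes 8 were below background at both times of forskolin, among them Cxcl10 and Il1b, which are 2 of the 8 called lower. Cxcl5, a neutrophil-attracting chemokine, read 12.56 and 12.22 and then 5.02 and 4.85 under DMSO, the later 2 below background, and was below background on all 4 forskolin arrays. Cxcl2 showed the same order, at 9.25 and 9.36 and then 5.16 and 4.96 under DMSO. Cxcl1 read 13.99 and 13.92 and then 10.97 and 10.97 under DMSO, and 6.99 and 6.87 and then 8.26 and 8.23 under forskolin, a rise of 1.31 (SE 0.12, adjusted p = 3.4e-06) while under DMSO it fell by 2.98. The macrophage marker sum moved with these genes, at 8200 to 8250 in the DMSO 2 h arrays against 3470 to 4530 in the other 3 control-virus groups, and its part in them was not tested. Under DMSO Cd14 changed by -2.32, and Marco, Adgre1 and Lyz2 by -0.70, -0.59 and -0.39. Much of the drop in the linear sum was therefore that of Cd14.

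Under forskolin, Relb, an NF-kB subunit, was at least 2.65-fold lower at 4 h (adjusted p = 1.1e-06), and Tnfaip2 at least 2.14-fold. Their fitted differences under DMSO were -1.40 and -2.48. The chemokines Ccl2 and Ccl7 fell by 1.38 (SE 0.13) and 1.19 (SE 0.11), less than under DMSO (1.99 and 3.19). Vcam1, an adhesion molecule, fell by 1.10, against a difference of -1.57 under DMSO. The genes that rose were Cxcl1, Nfkbiz (1.10) and Tnfaip3, an NF-kB inhibitor that was at least 1.17-fold higher. Ccl3, Ccl4 and Rgs4 were below background on all 4 forskolin arrays, so no change was measurable. Ikbke fell by 0.44 (adjusted p = 0.012) and did not pass under median scaling (-0.26, adjusted p = 0.19), nor without array B of the 2 h (-0.42, adjusted p = 0.058) or 4 h group (-0.38, adjusted p = 0.080). Vnn3, a vanin family enzyme, did not pass (0.20, adjusted p = 0.21), except without array A of the 4 h group (0.36, adjusted p = 0.048), while it fell by 4.30 under DMSO.

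Of 14 acute phase genes 6 fell and 4 rose under forskolin (median -0.22), against 8 lower and 0 higher under DMSO. Of all genes 19.1% went each way under forskolin, and under DMSO 5.67% were lower and 6.04% higher. Crp, C-reactive protein, read 10.34 and 10.45 and then 12.44 and 12.40 (2.03, SE 0.12, adjusted p = 1.1e-07) while falling by 1.31 under DMSO, and Fga, fibrinogen alpha, rose by 1.29. The serum amyloids Saa1 and Saa3 fell by 1.25 and 1.04, and the iron hormone Hamp by 0.93. Under DMSO the differences of Saa1, Saa3 and Hamp were -0.93, -4.05 and -2.86, so Saa3 and Hamp fell less with forskolin than without. Slc7a2, a transporter of arginine and lysine, rose by 1.15 under forskolin and fell by 3.20 under DMSO. Of 10 interferon response genes 3 rose and 1 fell, with a median of -0.07 that became 0.09 under median scaling, where 3 rose and 0 fell. Against 19.1% of all genes each way, counts from 10 genes give no result about that list. Irf1 rose by 1.40 (SE 0.15) and Rsad2 by 0.72 (SE 0.12).

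Of 16 measured genes that act back on cAMP signalling 5 fell and 2 rose (median 0.09), 43.8% called where 38.1% of all genes were, a share near the background. Pde4d, a phosphodiesterase that breaks down cAMP, read 9.83 and 10.22 and then 8.38 and 8.19 (-1.74, SE 0.19), while Pde8a, another, rose by 1.05 (SE 0.12). Akap12, a scaffold of protein kinase A, fell by 1.37 (SE 0.11), and Sik1 and the used probe of Crem fell as given above. Of 11 genes linked to insulin and FOXO factors 4 fell and 2 rose, or 3 and 3 under median scaling (median -0.06), where 19.1% of all genes went each way. Bcl6, a repressor, rose by 1.89 (SE 0.10) from 9.21 and 9.22 to 11.14 and 11.07, Sesn3 was at least 1.83-fold higher, and the cytokine signalling inhibitors Socs3 and Socs2 fell by 1.71 and 1.11.

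Of the class IIa deacetylases in these control cells, Hdac7 fell by 1.47 (SE 0.12, adjusted p = 1.7e-06), from 9.08 and 9.12 to 7.49 and 7.77, and rose by 0.45 under DMSO. Hdac4 rose by 0.84 (SE 0.20, adjusted p = 0.0054), from 7.51 and 8.08 to 8.66 and 8.61, but did not pass without array A of the 2 h group (0.56, adjusted p = 0.066). Hdac5 fell by 0.52 (SE 0.13, adjusted p = 0.0066) on the probe used and did not pass on its other probe (-0.18, adjusted p = 0.55), under median scaling (-0.39, adjusted p = 0.052), or without array A of the 2 h or array B of the 4 h group (-0.41, adjusted p = 0.064 for each). Of 13 measured deacetylases and partners 3 fell and 1 rose, or 2 and 1 under median scaling (median -0.06, or 0 at bounds), the third fall being that of Sik1. The called share of 30.8% was below the 38.1% of all genes.

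The following lists were read against the same 19.1% of all genes each way. Of 11 circadian clock genes 4 fell and 3 rose, or 2 and 2 under median scaling (median 0.20). Per1 and Bhlhe40 fell as given above, Arntl, which encodes the activator BMAL1, rose from 7.63 and 7.44 to 9.0 and 8.88 (1.41, SE 0.22, adjusted p = 0.00029), and Per2 fell by 0.69 but did not pass under median scaling (-0.50, adjusted p = 0.056). Of 17 cell cycle genes 9 rose and 4 fell (median 0.39, or 0.28 at bounds). The cyclins Ccnd1 and Ccnd2 fell by 0.91 and 0.95 and E2f3 by 0.85, while Ccne2 passed as higher but was below background at 2 h, with no fold above 1.

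Of 16 genes of the unfolded protein and amino acid stress responses 5 rose and 2 fell, with a median of -0.03 that became 0.05 under median scaling, where 6 rose and 2 fell. Herpud1, which acts in degradation of endoplasmic reticulum proteins, rose by 0.75 and fell by 0.78 under DMSO, and Chac1 and Xbp1 rose by 0.73 and 0.55. Of 14 ribosomal protein genes 6 fell and 0 rose (median -0.26), led by Rps27 (-0.93) and Rpl13 (-0.58). Of 20 respiratory chain genes 6 rose and 6 fell, or 3 and 7 under median scaling (median -0.10), with Ndufa2 down by 0.98, Ndufa1 by 0.91, Cox5b by 0.60 and Cox7a2 by 0.62. Of 8 genes of mRNA decay and translation brakes 2 rose and 2 fell, or 2 and 1 under median scaling, with a median of -0.04 that became 0.03. Tob2 fell by 0.90, and Tob1 by 0.43, which did not pass under median scaling (-0.37, adjusted p = 0.081) or without array A of the 2 h (-0.38, adjusted p = 0.085) or 4 h group (-0.36, adjusted p = 0.10). Btg1 rose by 0.50, but not past the test without array A of the 2 h (0.36, adjusted p = 0.086) or array B of the 4 h group (0.45, adjusted p = 0.055). Pan2 rose by 0.41, but not past it without array B of the 2 h (0.22, adjusted p = 0.25), array A (0.42, adjusted p = 0.082) or array B of the 4 h group (0.41, adjusted p = 0.086).

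Cells that received the shRNA virus were set beside the control cells over the same interval of forskolin. Over the 8 arrays of each virus Hdac5, on the probe used, was at 9.02 to 10.35 with the control virus and at 5.72 to 6.73 with the shRNA virus. Hdac4 was at 7.40 to 8.66 and at 5.74 to 6.99, so that neither overlapped. With the shRNA virus Hdac5 was detected on 3 and Hdac4 on 4 of the 8 arrays, and the other signals there were below background. In the knockdown cells 3234 genes (41.8%) passed between 2 h and 4 h of forskolin, 1638 higher (21.1%) and 1596 lower (20.6%). The time changes of the 2 kinds of cell, which share no array, correlated at 0.537 across the 7746 genes, given as a description. Of the 399 faded genes 278 (69.7%) also fell in the knockdown cells and 17 (4.26%) rose, and of the 531 late higher genes 254 (47.8%) rose and 16 (3.01%) fell. Of the 122 genes that rose further 59 (48.4%) rose and 12 (9.84%) fell.

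The difference between the time changes of the 2 kinds of cell passed for 1314 genes (17%), with 684 more positive (8.83%) and 630 more negative (8.13%) in the knockdown cells. Median scaling gave 792 in place of 1314 genes. G6pc rose in control cells and fell in knockdown cells, from 8.33 and 8.47 to 6.80 and 6.72 (-1.64, adjusted p = 1.9e-06), a difference of -3.51 (SE 0.20, adjusted p = 1.3e-07) between the time changes. Acot3, Dclk3 and Tuba8, which appeared late in control cells, were below background on all 4 knockdown arrays, with fitted differences of -2.82, -2.94 and -2.33 that include signals below background. Cyp1a2 was detected on 1 of the knockdown arrays at 4 h and on neither at 2 h (fitted difference -2.36). Pdk4, a kinase that inhibits pyruvate dehydrogenase, did not pass in control cells (0.24) and fell by 2.38 in knockdown cells.

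In the other direction 17 of the 21 chemokine and NF-kB genes rose and 0 fell in knockdown cells. Of the 14 acute phase genes 9 rose and 4 fell, where 21.1% of all genes rose and 20.6% fell. Cxcl1 went from 10.61 and 10.47 to 15.30 and 15.44, a rise of 4.83 against 1.31 in control cells (difference 3.52, SE 0.17). Saa3 rose by 3.89 where it had fallen by 1.04, Hamp by 3.40 where it had fallen by 0.93, and Ccl2 by 2.46 where it had fallen by 1.38. Cxcl5 rose by 4.85, and Cxcl2, below background at 2 h, was at least 9.75-fold higher at 4 h. Over the chemokine and NF-kB list the difference passed as higher in 18 of 21 genes and as lower in 0. Over the acute phase list it passed as higher in 8 of 14 and as lower in 1. The shares of all tested genes were 8.83% higher and 8.13% lower. The macrophage marker sum moved with these genes, from 4150 to 4160 at 2 h to 9800 to 10900 at 4 h in the knockdown cells, against 3930 to 4180 and 4300 to 4530 in control cells. Of its 4 detected genes 3 had a more positive change in knockdown cells, and Cd14 rose there from 10.85 and 10.86 to 12.82 and 12.64 (1.88, SE 0.095), while Clec4f was not detected on a control-virus array. Adgre1 rose there by 0.57 (SE 0.12), and much of the rise in the linear sum was that of Cd14. The hepatocyte marker sum was 7930 to 8340 at 2 h and 6370 to 6640 at 4 h in the knockdown cells, under the 21500 to 28900 of control cells. The part of either in the differences between the viruses was not tested. Of the 18 CREB-linked genes 12 had a more positive change in knockdown cells and 0 a more negative one, against 8.83% and 8.13% of all genes. Klf4, for example, fell by 2.04 there (difference 1.48, SE 0.23). Hey1, which is not on that list, fell by 0.39 (difference 2.92).

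**Figure D5:**
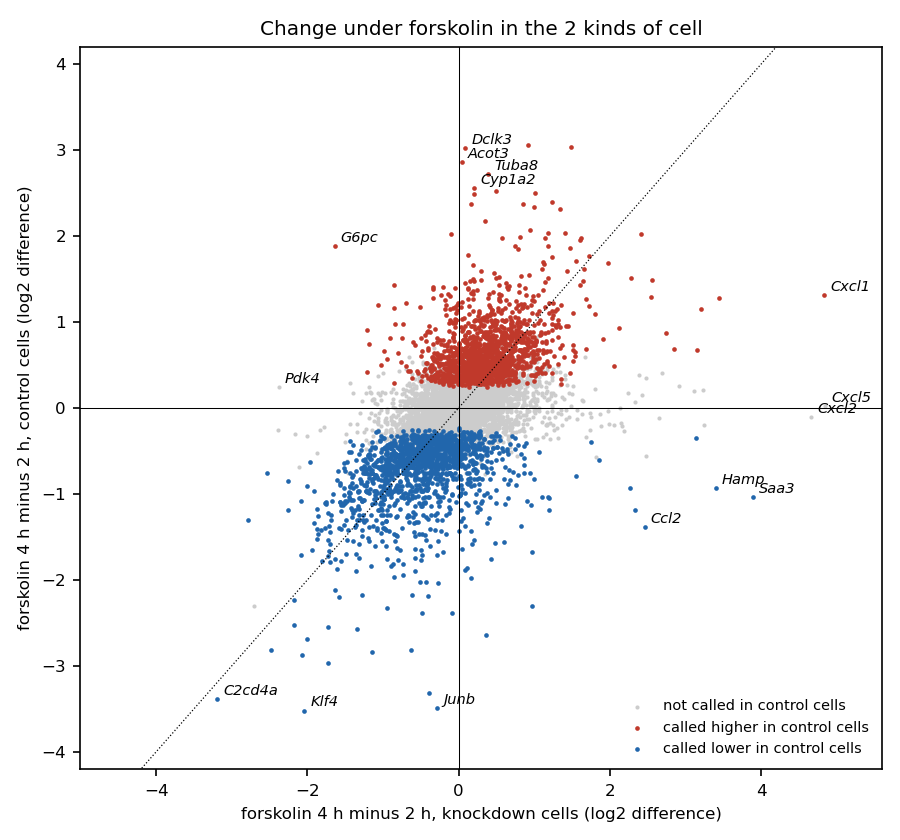
Each point is 1 of the 7746 genes, with its 4 h minus 2 h difference under forskolin in knockdown cells on the x axis and in control cells on the y axis (log2 differences, means of 2 arrays each), coloured by the call in control cells, and the dotted line marks equal change. C2cd4a lies close to that line, Acot3, Dclk3, Tuba8 and Cyp1a2 lie high near 0 of the x axis, and G6pc and Cxcl1 lie far to either side of it.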

How the data were processed

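Gene expression was measured on Illumina mouse bead arrays in 16 samples. The deposited non-normalized table holds the linear signal intensity of each probe on each array and a detection p-value, per the file headers, and GenomeStudio is named in the submitters' processing notes, with its version not given in the sources used here. The authors also deposited a normalized value table, used here on the log2 scale with values floored at 16 as an alternative only. Table columns name a group and a letter, so letters served as replicates without a tie to the replicate numbers of the labels.

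Intensities were background corrected by normexp, with the background estimated from the detection p (offset 16), quantile normalized and taken to log2. A probe was kept when its detection p was below 0.01 on at least 2 arrays, and 9308 of the 10439 kept probes named a single gene. Where a gene had several, its brightest probe by mean was used, which left 7746 genes. All groups were fitted with limma 3.58.1 in R 4.3.3 (8 residual and 4.6 prior degrees of freedom) with Benjamini-Hochberg adjustment over all genes, and each p given for a gene is of that fit. The fit was tested on simulated data. With 2 arrays a group, the number of arrays limits the precision.

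Members and gene lists were chosen with earlier results of these data known. The genes named are the 12 largest rises and falls that passed without overlap, the 6 largest interactions in each direction, a set of genes of the cAMP response, up to 4 genes of smallest p in each list and the 6 largest fitted responses of each class. Cebpd, Jun, Myc, Nfkbiz, Klf5, Klf9, Cdo1, Spry4, Spred1, Fosl1, Cxcl10 and Il1b were named beyond that rule, after their values were seen, to complete counts. Alternatives changed the background correction, scaling, detection filter, probe choice, arrays in the fit, variance prior, minimum size and the replicate letter, or left out an array. Promoter windows were RefSeq's (GRCm38.p6).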

Additional observations from a re-analysis of the deposited data

Results flagged for a closer look

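These 24 results are listed because a test of the difference itself passed, the interaction of time with treatment or with virus, and they include the 6 largest such differences in each direction. Against DMSO in control cells, the time change under forskolin was more positive by 7.48 for Cxcl5, 4.50 for Vnn3, 4.35 for Slc7a2, 4.30 for Cxcl1, 4.14 for Cxcl2 and 3.33 for Crp (fitted log2 differences, SE 0.17 to 0.24). It was more negative for Junb (-4.74), Lmcd1 (-3.66), Klf4 (-3.45), C2cd4a (-3.45), Hey1 (-3.26) and Hilpda (-3.25). For Cxcl5, Vnn3 and Cxcl2 the difference was that of the fall under DMSO, since none passed under forskolin (0.02, 0.20 and -0.11). Cxcl5 and Cxcl2 were below background at both times of forskolin and at 4 h of DMSO, so the sizes are not measured, and the falls under DMSO were at least 54-fold and 6.35-fold. C2cd4a was detected at 2 h of forskolin alone among the 4 groups, and Hey1 was below background under DMSO.

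Between the viruses, the time change under forskolin was more positive in knockdown cells for Saa3 (4.94), Cxcl5 (4.83), Cxcl2 (4.77), Hamp (4.33), Ccl2 (3.85) and Cxcl1 (3.52). It was more negative for G6pc (-3.51), Dclk3 (-2.94), Acot3 (-2.82), Pdk4 (-2.62), Cyp1a2 (-2.36) and Tuba8 (-2.33). Cxcl5 and Cxcl2 were below background at both times in control cells, Cxcl2 also at 2 h in knockdown cells, where Cyp1a2 was not detected at 2 h and on 1 array at 4 h. Dclk3, Acot3 and Tuba8 were below background on all 4 knockdown arrays, so the sizes for these 6 genes depend on the background level.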

How the results depend on the processing

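The 10 counts and the named genes were recomputed under each alternative that holds their arrays, and the gene lists under 3 of them. Scaling to a common median gave 792 genes for the difference between the viruses, 146 faded, 65 early higher genes that rose further, 316 late higher and 698 early lower genes that rose again. Requiring a log2 difference of at least 1 left 506 genes for forskolin, 148 for DMSO, 706 for their difference and 415 for that between the viruses, with 57 faded, 16 early higher that rose further, 66 late higher, 18 that rose again, 15 early lower that fell further and 133 late lower genes. Leaving out each control-virus array in turn gave 2268 to 2907 genes for forskolin, 502 to 918 for DMSO, 1586 to 1738 for their difference, 968 to 1252 between the viruses, 257 to 388 faded, 78 to 115 early higher that rose further, 370 to 575 late higher, 191 to 300 that rose again, 65 to 106 early lower that fell further and 459 to 729 late lower genes. With the replicate block, the letter as a term, forskolin gave 3328 genes (1695 higher and 1633 lower), DMSO 1164, their difference 2416 and the viruses 1628. The letters are not tied to a shared culture, and deviations of same-lettered arrays correlated at 0.049 to 0.307, so the block is given here only. Over the named genes and their alternatives 3381 values kept direction and call, 59 lost the call and 6 gained it. A further 13 values, of 8 results that had not passed, turned sign without passing, among them Pcx (-0.49 to 0.41), and no called value reversed.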
